A study of Mus musculus with 20 samples.

Results

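DNA methylation was described here at 10 genes that build the antennae of N-glycans in liver, Mgat1, Mgat2, Mgat4a, Mgat4b, Mgat5, Mgat3, Fut8, B4galt1, St6gal1 and St3gal4. They were listed by name, and their CpGs were selected on coverage: a CpG between 5 kb upstream of a gene's annotated 5′ end and the end of the gene was kept where at least 10 reads covered it in at least 3 libraries of each group. This left 646 CpGs of the 922846 that met the same coverage in the whole genome, in 10 of 30593 annotated genes with such a CpG. Of the 2796 CpGs of these genes with any read, 2150 were not kept. The 75 kept CpGs with only 3 such libraries in their thinnest group had a median methylation of 0.923% and a median depth of 14.5 reads. The 114 that missed the minimum by a single library had 2.07% and 10.5 reads. By contrast, 1950 of those not kept had 0 such libraries in at least 1 group, with medians of 66.3% and 0 reads. The 423 with 10 reads in all 20 libraries had 0.131% and 34 reads. The kept CpGs thus do not stand for all CpGs of these genes in methylation level.

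The livers came from wild-type C57BL/6J mouse offspring, all labelled male, in 4 groups of 5 libraries. AME-d21 and AME-d0 offspring came from dams on a Western diet from before mating that were also stressed late in gestation. This combination is the adverse maternal environment (AME). Dams of Con-d21 and Con-d0 offspring had a control diet and no added stress. Each diet lasted through pregnancy for d0 offspring and through lactation for d21 offspring. At d0 the fetuses were taken by C-section at term, and at d21 the pups were killed at weaning after a fast. Age, route of birth, feeding, length of the dams' diet and fasting therefore differ together between d21 and d0 and cannot be told apart. Reduced representation bisulfite sequencing (RRBS) reads fragments of DNA cut at CCGG sites and counts each CpG as methylated or unmethylated, with 23248139 to 45769589 CpG reads per library here.

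N-glycans are sugar chains attached to asparagine residues of proteins, and they coat most of the plasma proteins that hepatocytes secrete. In the Golgi, MGAT1 adds the first N-acetylglucosamine that commits a chain to the hybrid and complex types, MGAT2 starts the second antenna, MGAT4A, MGAT4B and MGAT5 add further branches, and MGAT3 adds a bisecting residue that hinders branching. FUT8 fucosylates the core, B4GALT1 adds galactose to the antennae, and ST6GAL1 and ST3GAL4 cap the galactose with sialic acid in different linkages. Liver is a main source of the sialyltransferase ST6GAL1.

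Libraries differed beyond their groups. The library labelled AME-d21 replicate 4 had a ratio of X-chromosome to autosomal reads of 2.88%, the other AME-d21 libraries having 1.53% to 1.55%, and 16.2 Y short-arm reads for each 1000000 in all, the others having 189 to 214, which goes against its male label. AME-d0 replicates 1 and 3 had 30.2% and 29.5% methylated reads, against 34.7% to 36.8% in the other AME-d0 libraries. Promoters of marker genes also moved with age: the mean over the 4 of 14 hepatocyte promoters that could be measured (Fgb, F2, Pck1 and Hnf4a) was 19.5% to 26.7% in AME-d21 and 51.9% to 60.3% in AME-d0, and that over 10 of 20 haematopoietic promoters was 33.8% to 38.2% in AME-d21 and 9.58% to 15.5% in AME-d0. For 3 of 8 endothelial promoters the ranges were 38.3% to 42.2% in AME-d21 and 9.65% to 15.2% in AME-d0, and for 2 of 7 B-cell promoters 35.9% to 42.0% in AME-d21 and 6.19% to 13% in AME-d0. All 4 measured hepatocyte promoters fell by limma, next to 3.14% of all promoters. The other lists did not move as a whole. By limma 8 of the 10 haematopoietic, 2 of the 3 endothelial and 1 of the 2 B-cell promoters rose, next to 20.8% of all promoters. Kdr (endothelial) had 5.84% in AME-d21 and 3.66% in AME-d0, and Ebf1 (B-cell) 2.23% in AME-d21 and 0.469% in AME-d0. Kit and Tal1 (haematopoietic) rose but stayed below 1% in every group mean. In bulk liver a changed share of cell types and a change within a cell type cannot be told apart, and their part in the results on age was not tested.

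The sequences that carry the largest age differences are shown with their CpGs in capitals, 1 bin of 200 bp for each of 4 genes, from the plus strand of GRCm38 (mm10). The Mgat1 bin, chr11:49261201-49261400, lies in the coding exon and was measured at the first 3 of its 5 CpGs. The St6gal1 bin, chr16:23269801-23270000, lies in an intron near an internal transcript start and was measured at both of its CpGs. The Mgat4a bin, chr1:37479601-37479800, is intronic and was measured at the last 2 of its 3 CpGs, and the Mgat5 bin, chr1:127397401-127397600, spans an intron and the start of a coding exon and was measured at all 8.
Mgat1: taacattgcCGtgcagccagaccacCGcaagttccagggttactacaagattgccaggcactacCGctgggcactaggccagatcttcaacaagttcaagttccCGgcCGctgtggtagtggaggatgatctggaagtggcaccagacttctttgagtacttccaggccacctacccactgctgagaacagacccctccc
St6gal1: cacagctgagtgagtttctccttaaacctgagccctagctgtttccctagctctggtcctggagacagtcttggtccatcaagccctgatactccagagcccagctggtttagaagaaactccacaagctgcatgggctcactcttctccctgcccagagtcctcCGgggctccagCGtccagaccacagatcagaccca
Mgat4a: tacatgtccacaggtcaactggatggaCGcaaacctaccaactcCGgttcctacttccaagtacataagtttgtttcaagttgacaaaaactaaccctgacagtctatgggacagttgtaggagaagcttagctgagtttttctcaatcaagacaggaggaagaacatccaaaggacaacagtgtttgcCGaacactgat
Mgat5: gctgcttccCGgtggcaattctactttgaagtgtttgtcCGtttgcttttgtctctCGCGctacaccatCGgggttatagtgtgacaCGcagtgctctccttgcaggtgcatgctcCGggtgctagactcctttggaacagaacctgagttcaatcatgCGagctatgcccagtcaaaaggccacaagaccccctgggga
The Mgat1 and Mgat5 runs lost methylation with age, and the St6gal1 and Mgat4a runs gained it. CpGs a few bases apart share reads, so that those within a run are not independent measurements.

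The age difference in AME offspring ran in both directions across these genes. Reads were pooled in fixed bins of 200 bp, which left 109 bins of the 10 genes among 189543 in the genome. Pooled reads are summed over the CpGs of a bin, so that a read covering several CpGs is counted at each. Each bin was tested with limma on the log2 ratio of methylated to unmethylated reads, adjusted p-values being taken over all bins. In AME-d21 relative to AME-d0, 31 of the 109 bins (28.4%) rose and 9 (8.26%) fell at an adjusted p under 0.05. Over all bins of the genome 42.5% rose and 3.27% fell. Bins of St6gal1 and Mgat1 were known from the age contrast in Con offspring when the genes were chosen, and these genes hold 5 of the 9 bins that fell. In the other 8 genes 25 of 90 bins (27.8%) rose and 4 (4.44%) fell, a share of falls near that of the genome. The median difference was 0.326 percentage points over the 109 bins and 7.12 over all bins. Of the 40 called bins, 36 differed by at least 10 points, which is 33.0% of the 109 bins, next to 35.6% of all bins. The AME-d21 and AME-d0 libraries did not overlap in 19 of the 31 that rose (17.4% of the 109 bins) and 6 of the 9 that fell (5.50%), while such bins made up 25.7% and 2.23% of all bins. Among called bins the share without overlap was 61.3% of the bins of these genes that rose and 66.7% of those that fell, next to 60.5% and 68.1% over the genome. Without AME-d21 replicate 4 the counts were also 31 and 9, and without AME-d0 replicates 1 and 3 they were 26 and 9.

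**Figure D1:**
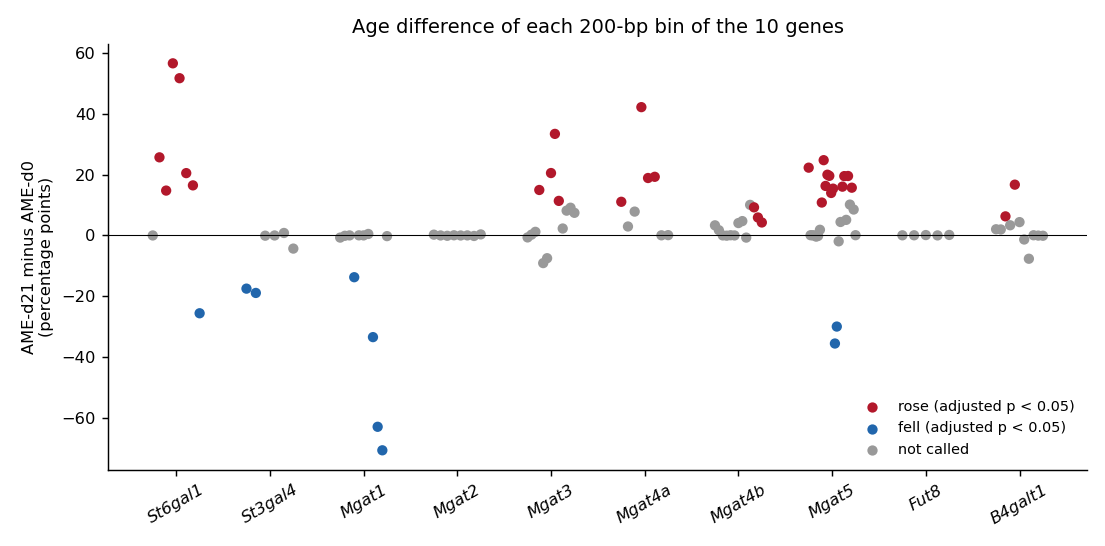
Difference in mean methylation (AME-d21 minus AME-d0, percentage points) of each of the 109 bins, by gene and in order of genome position within a gene; red points rose, blue points fell and grey points were not called by limma. The called bins of Mgat4a, Mgat4b, Mgat3 and B4galt1 lie above 0, as do 6 of St6gal1 and 12 of Mgat5, whereas the 4 of Mgat1, both of St3gal4, 2 of Mgat5 and 1 of St6gal1 lie below it.

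Single CpGs gave fewer calls. With a quasi-binomial test per CpG, an unadjusted p under 0.001 and a difference of at least 10 points, 11 of the 646 CpGs rose (1.70%) and 15 fell (2.32%), against 2.56% and 0.553% of all CpGs of the genome. The calls were in St6gal1 (5 rose, 1 fell), Mgat1 (7 fell), Mgat3 (1 rose) and Mgat5 (5 rose, 7 fell). The falls are thus few loci: bins of St6gal1 and Mgat1 were known in advance, and the falls of Mgat5 were mostly in the printed bin, where neighbouring CpGs share reads. The share of CpGs that fell is therefore not a result on the 10 genes as a set. Leaving out any single library of AME-d21 or AME-d0 left 16 to 19 calls, and without AME-d21 replicate 4 there were 5 that rose and 12 that fell.

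The bins that changed were described by position and CpG content, which the selection had not used. No share over all bins of the genome stands beside these values. Whether any of them is particular to these genes was therefore not tested. None of the 28 bins within 1 kb of a 5′ end was called. In all, 38 bins stayed below 10% in all 20 libraries, which by itself leaves no room for a large difference. The bins that rose held a median of 3 CpGs in the reference and lay a median of 61115 bp from the gene's 5′ end, those that fell held 5 CpGs at 16910 bp, and those not called held 11 CpGs at 2904 bp. Intronic CpGs alone made up 24 of the 31 bins that rose, while 4 of the 9 that fell held coding-exon CpGs. The bins that rose had a median of 94.3% in AME-d21 and 74.9% in AME-d0. Those that fell had 27.6% in AME-d21 and 62.3% in AME-d0. Of the 9 that fell, 4 are of Mgat1 and 1 is of St6gal1, whose bins were known when the genes were chosen. The values of the bins that fell thus describe few loci.

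Mgat1, the gene of the enzyme that opens the complex pathway, lost methylation in all 4 of its called bins, of 11 tested. The printed bin had 22.2%, 21.7%, 19.2%, 33.3% and 19.4% in the AME-d21 libraries, against 96.7%, 92.9%, 88.1%, 100% and 92.3% in the AME-d0 libraries. The groups stood far apart, and AME-d21 replicate 4 was the highest of its group. The mean fell to 23.2% ± 5.82 in AME-d21, against 94.0% ± 4.53 in AME-d0 (SD, n = 5 each), a log2 difference of -5.05 (SE 0.32, limma adjusted p = 2.8e-07). The 12 to 108 pooled reads per library were 4 to 36 reads at each of 3 CpGs. AME-d0 replicate 4, at 100%, had fewer than 10 reads at each of them. The difference of -70.8 points in this bin was the lowest among the 189543 bins, and without AME-d21 replicate 4 it was -73.3 points. Since bins of Mgat1 were known from the age contrast in Con offspring when the gene was chosen, this rank is a description only.

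Within that run the methylation differed from CpG to CpG. The second capital pair, the CpG at 49261226 on chromosome 11, had 0%, 4.35%, 0%, 7.14% and 11.1% in the AME-d21 libraries, against 100%, 92.9%, 92.9% and 84.6% in the 4 AME-d0 libraries with 10 reads. This was a mean difference of -88.1 points (quasi-binomial test, adjusted p = 0.0048), the lowest among the 922846 CpGs, a rank under the same limit as that of the bin. The first pair, at 49261210, averaged 5.92% ± 5.63 in AME-d21 (n = 5) and 89.1% ± 9.15 in AME-d0 (n = 4). The third pair, at 49261265 on the same run, averaged 59.1% ± 13.5 in AME-d21 and 95.7% ± 5.08 in AME-d0, and was not called. In their order along the run the same 3 CpGs averaged 5.74%, 8.12% and 57.1% in Con-d21 and 65.6%, 90.5% and 90.9% in Con-d0, so that the third stood above its neighbours at d21 in both groups.

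The neighbouring Mgat1 bin starting at 49261001, in the same coding exon, had 35.0%, 26.3%, 20.3%, 25.0% and 17.9% in AME-d21, against 82.1%, 91.7%, 92.2%, 88.3% and 85.3% in AME-d0. All AME-d21 libraries were again below all AME-d0 libraries, with a log2 difference of -4.44 (SE 0.34, adjusted p = 1.1e-06). Farther upstream, the intronic bin starting at 49253201 averaged 27.6% ± 6.24 in AME-d21 and 61.1% ± 6.90 in AME-d0 (adjusted p = 0.00021), and a bin 1110 bp past the 5′ end, in the UTR, averaged 1.92% ± 1.83 in AME-d21 and 15.7% ± 2.23 in AME-d0 (adjusted p = 8.6e-05). The middle of that UTR bin lies 70 bp from an annotated Mgat1 transcript start and 1055 bp from the nearest coding one. By contrast, both coding-transcript starts of Mgat1 with kept CpGs within 1 kb were nearly free of methylation. They had 0.218% and 0.0996% in AME-d21 and 0.504% and 0.0353% in AME-d0.

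Mgat2, whose enzyme starts the second antenna, showed no called difference. Its 98 CpGs in 8 bins surround the 5′ end of a gene with a single transcript, and all of them also overlap the annotated gene Gm49383. The bin that differed most, starting at 69185001 in the coding exon on chromosome 12, averaged 1.94% ± 1.32 in AME-d21 and 1.62% ± 0.960 in AME-d0 (limma adjusted p = 0.56), on 142 to 357 pooled reads per library.

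Mgat4a, a branching enzyme, rose in 4 of 8 bins, all of them intronic. The printed bin, 61315 bp into the gene, had 100%, 91.1%, 95.0%, 79.2% and 87.5% in AME-d21, against 46.7%, 31.2%, 69.2%, 45.5% and 48.9% in AME-d0. No AME-d0 library reached the lowest AME-d21 library, and the log2 difference was 2.89 (SE 0.41, adjusted p = 0.00011). The 10 to 58 pooled reads per library were 5 to 29 reads at each of 2 CpGs. The next bin, starting at 37479801, rose to 46.8% ± 4.57 in AME-d21, against 27.9% ± 6.33 in AME-d0 (adjusted p = 0.0051). The bin after it had fewer than 10 reads in at least 1 library and was not tested; over the libraries with 10 reads it averaged 87.7% in AME-d21 and 38.2% in AME-d0. Another called bin, starting at 37505401, averaged 77.4% ± 5.38 in AME-d21 and 58.1% ± 5.99 in AME-d0 (adjusted p = 0.0036).

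Mgat4b, whose enzyme can add the same branch, rose in 3 of 13 bins that follow each other at the 3′ end, by smaller amounts. They averaged 95.6%, 95.4% and 96.3% in AME-d21 and 86.3%, 89.5% and 92.1% in AME-d0, with adjusted p-values of 0.0037, 0.044 and 0.014. The AME-d21 and AME-d0 libraries overlapped in all 3, and the middle bin was no longer called under 10 of its 15 alternatives, among them without AME-d21 replicate 4 (adjusted p = 0.10).

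Mgat5, whose enzyme adds the branch on which polylactosamine chains are preferentially built, had the most bins, 26 over 283322 bp, of which 12 rose and 2 fell. The printed bin, 192486 bp past the 5′ end, had 31.9%, 26.6%, 27.0%, 23.8% and 42.2% in AME-d21, against 61.5%, 67.3%, 66.9%, 65.6% and 68.4% in AME-d0. All AME-d21 libraries were lower, with a log2 difference of -2.16 (SE 0.29, adjusted p = 7.9e-05) on 160 to 372 pooled reads per library. Its 8 CpGs averaged 21.4% to 39.4% in AME-d21 and 52.4% to 75.6% in AME-d0, and 6 of them were called singly. The adjoining bin averaged 32.3% ± 10.1 in AME-d21 and 62.3% ± 5.65 in AME-d0 (adjusted p = 8.6e-04).

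The other called bins of Mgat5 rose, by 10.8 to 24.8 points. The largest was intronic, starting at 127336401, with 100%, 94.1%, 92.9%, 90.0% and 95.2% in AME-d21, against 68.8%, 79.2%, 68.8%, 63.6% and 68.0% in AME-d0 (log2 difference 2.10, SE 0.31, adjusted p = 1.4e-04). It was read at a single CpG with 11 to 30 reads per library. The only called bin upstream of any of the 10 genes lay 1114 bp before the Mgat5 5′ end, and averaged 65.6% ± 6.01 in AME-d21 and 43.3% ± 5.97 in AME-d0 (adjusted p = 0.0027). The 20 CpGs within 1 kb of that end averaged 0.0811% in AME-d21 and 0.0331% in AME-d0.

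Mgat3, whose bisecting residue hinders the action of the branching enzymes, rose in 4 of 13 bins. The largest, in the intron 21780 bp past the 5′ end, had 100%, 96.6%, 90.6%, 96.7% and 93.0% in AME-d21, against 33.3%, 70.8%, 63.6%, 63.3% and 78.6% in AME-d0. The groups did not overlap (log2 difference 3.05, SE 0.44, adjusted p = 0.00012), AME-d0 replicate 1 was the lowest library, and the bin was read at a single CpG with 11 to 61 reads. In the Con groups the same bin averaged 92.7% ± 1.81 at d21 and 82.7% ± 8.60 at d0. The bin starting at 80181201 averaged 94.8% ± 1.83 in AME-d21 and 79.9% ± 6.87 in AME-d0 (adjusted p = 0.0011), against 86.9% ± 3.16 in Con-d21 and 86.6% ± 2.50 in Con-d0. Whether the age difference itself differs between AME and Con was not tested.

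Fut8, which fucosylates the glycan core, and B4galt1, which adds galactose, had 0 and 2 called bins. The 50 CpGs of Fut8 all lie in bins under 10% and close to 2 transcript starts, and the bin that differed most averaged 0.201% ± 0.207 in AME-d21 and 0.0505% ± 0.113 in AME-d0 (adjusted p = 0.20). B4galt1 rose in 2 of 11 bins, at 74.6% ± 10.4 in AME-d21 and 57.9% ± 10.9 in AME-d0 (intron, adjusted p = 0.040) and at 94.5% ± 3.44 in AME-d21 and 88.2% ± 3.80 in AME-d0 (coding exon, adjusted p = 0.040). The AME-d21 and AME-d0 libraries overlapped in both. The first was not called under 10 of its 16 alternatives and the second under 7 of its 16.

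St6gal1, the sialyltransferase that liver makes in quantity, rose in 6 of 8 bins and fell in 1. The printed bin, 45161 bp past the 5′ end, had 97.4%, 85.4%, 84.7%, 97.1% and 82.4% in AME-d21, against 25.7%, 39.3%, 18.3%, 28.6% and 51.7% in AME-d0. All AME-d21 libraries were higher (log2 difference 4.13, SE 0.50, adjusted p = 3.2e-05), and the spread was wider in AME-d0. The next bin had 89.1%, 86.7%, 91.8%, 85.0% and 87.1% in AME-d21, against 26.4%, 42.7%, 28.6%, 38.4% and 44.8% in AME-d0, again with no overlap (log2 difference 3.52, SE 0.32, adjusted p = 3.5e-06).

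Both bins lie just past an annotated start of a coding St6gal1 transcript, 44889 bp downstream of the 5′ end of the gene. The 6 kept CpGs within 1 kb of that start averaged 88.0% ± 3.66 in AME-d21 and 32.1% ± 8.23 in AME-d0, against 86.8% ± 1.83 in Con-d21 and 34.3% ± 8.08 in Con-d0. The 13 CpGs at the 5′ end of the gene averaged 0.120% in AME-d21 and 0.138% in AME-d0. Among the 10 genes, 15 of 26 distinct coding-transcript starts had a kept CpG within 1 kb, and the other 14 were below 1% in all 4 group means. The windows around transcript starts were added after the bin values had been seen and were given no test, and which St6gal1 transcript these livers used was not analysed here.

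Elsewhere in St6gal1 the bin starting at 23263201 averaged 87.8% ± 3.42 in AME-d21 and 62.1% ± 5.85 in AME-d0 (adjusted p = 0.00013). The bin that fell, starting at 23317401 in a later intron, had 9.52%, 23.5%, 14.3%, 12% and 12.1% in AME-d21, against 42.3%, 42.9%, 21.4%, 45.8% and 47.2% in AME-d0 (log2 difference -1.82, SE 0.35, adjusted p = 8.4e-04). AME-d0 replicate 3 alone overlapped the AME-d21 range. This bin was read at a single CpG with 14 to 58 reads.

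St3gal4, the other sialyltransferase, fell in 2 of 6 bins, which adjoin each other in an intron. They averaged 40.8% ± 8.09 and 54.7% ± 9.16 in AME-d21, against 59.7% ± 6.31 and 72.3% ± 4.10 in AME-d0 (adjusted p = 0.012 for each), and the groups overlapped in both. Its annotated 5′ end had 0 kept CpGs within 1 kb and could not be tested, while the 41 CpGs around a start 2395 bp downstream averaged 0.0348% in AME-d21 and 0.303% in AME-d0.

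**Figure D2:**
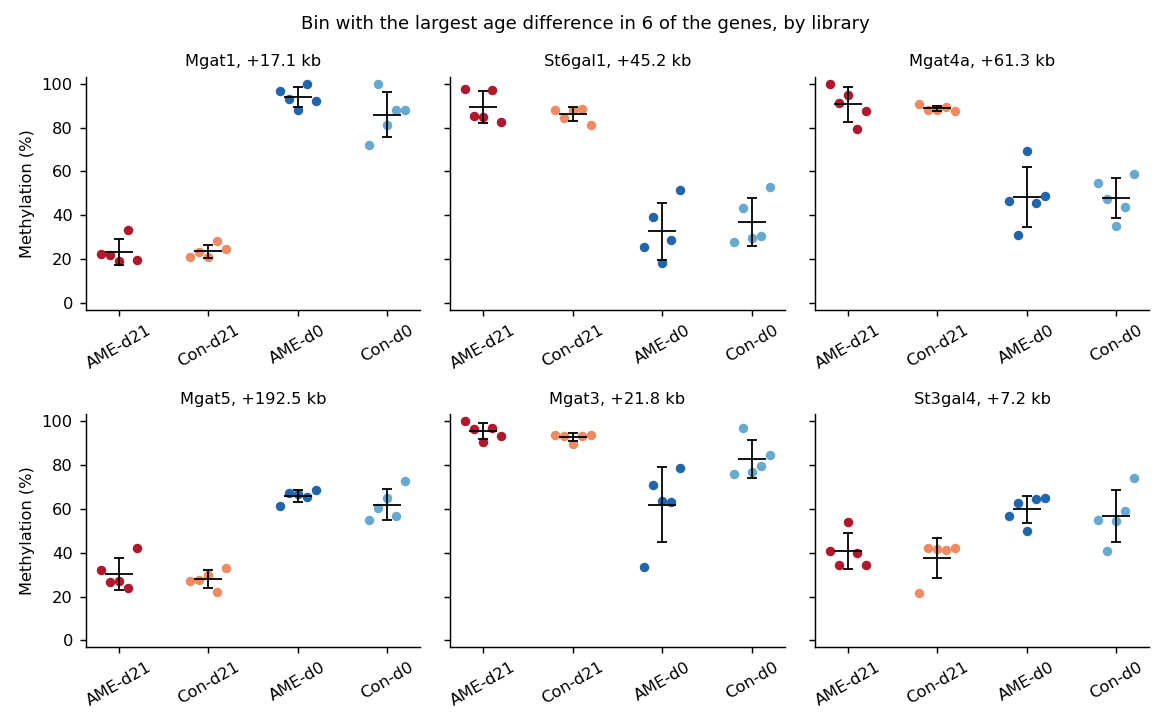
Methylation (%) of the bin with the largest age difference in Mgat1, St6gal1, Mgat4a, Mgat5, Mgat3 and St3gal4; points are libraries, black bars the mean and SD of 5 libraries, and panel titles give the distance from the 5′ end of the gene. AME-d21 lies below AME-d0 for Mgat1, Mgat5 and St3gal4 and above it for St6gal1, Mgat4a and Mgat3, and Con-d21 lies on the same side of Con-d0 in each panel.

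In Con offspring the age difference is given as values only, since bins of St6gal1 and Mgat1 were known from that contrast when the genes were chosen. The printed bins averaged 23.6% in Con-d21 and 85.9% in Con-d0 for Mgat1, and 86.1% in Con-d21 and 36.8% in Con-d0 for St6gal1. They averaged 88.7% in Con-d21 and 47.9% in Con-d0 for Mgat4a, and 27.9% in Con-d21 and 61.8% in Con-d0 for Mgat5. The bin of St6gal1 starting at 23269201 had fewer than 10 reads in 1 AME-d21 library and was left out of the test. Over the libraries with 10 reads it averaged 88.1% ± 13.5 in AME-d21 (n = 4) and 24.2% ± 10.3 in AME-d0 (n = 5), against 89.6% ± 6.45 in Con-d21 and 21.9% ± 4.09 in Con-d0 (n = 5 each). Averaged over the 31 bins that rose in AME, the libraries had 87.4% to 89.3% in Con-d21 and 71.0% to 78.3% in Con-d0, next to 86.5% to 89.5% in AME-d21 and 65.0% to 72.5% in AME-d0. Over the 9 bins that fell they had 19.9% to 30.5% in Con-d21 and 57.7% to 63.5% in Con-d0, next to 26.6% to 30.6% in AME-d21 and 57.4% to 65.4% in AME-d0.

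Promoters, the windows of 1 kb on either side of the 5′ end, were tested for 9 of the 10 genes. None rose and none fell in AME-d21 relative to AME-d0 by limma, against 20.8% and 3.14% of the 18301 promoters of the genome, and 0 of 9 had an unadjusted p under 0.05. All 9 were below 1% in every group mean, with Mgat3 highest at 0.671% ± 0.427 in AME-d21 and 0.524% ± 0.368 in AME-d0, so that a fall could hardly be seen there. With at least 20 reads per CpG, or with CpGs read in all 20 libraries alone, 7 promoters could be tested and that of Mgat4a was called (log2 difference 1.02 in each, adjusted p = 0.044 and 0.043).

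AME and Con offspring were then compared at the same age, the question the study asked of the maternal environment. The study reported differentially methylated regions between AME and Con at both ages. Its procedure for calling regions was not repeated here, so that the counts below are from other tests. At d0, 0 of the 109 bins (0% of all bins), 0 of the 9 promoters (0% of all promoters) and 0 of the 646 CpGs (0.000542% of all CpGs, or 5 of 922846) were called between AME-d0 and Con-d0. At an unadjusted p under 0.05 there were 7 bins (6.42%, against 5.70% of all bins) and 2 of 9 promoters (5.38% of all promoters) by limma, and 10 CpGs (1.55%, against 1.68% of all CpGs) by the quasi-binomial test. At d21 the counts between AME-d21 and Con-d21 were likewise 0 bins (0% of all bins), 0 promoters (0% of all promoters) and 0 CpGs (0.000217% of all CpGs, or 2), with 4 bins (3.67%, against 4.97% of all bins), 0 promoters (4.97% of all promoters) and 6 CpGs (0.929%, against 1.61% of all CpGs) at an unadjusted p under 0.05. Without AME-d21 replicate 4 at d21, and without AME-d0 replicates 1 and 3 at d0, these counts of calls were 0 as well. The counts over the genome depended on the test. A likelihood-ratio test without overdispersion called 1831 of the 922846 CpGs at d0 and 1378 at d21, with 1 of the 646 at each age. With 5 libraries a group, differences of a few points in bins near the minimum of 10 pooled reads were not detectable at this depth. Larger ones went uncalled too. Over all bins the differences ranged from -29.4 to 24.3 points at d0 and from -31.0 to 25.5 points at d21. The counts of 0 therefore do not bound the differences between AME and Con at a few points.

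**Figure D3:**
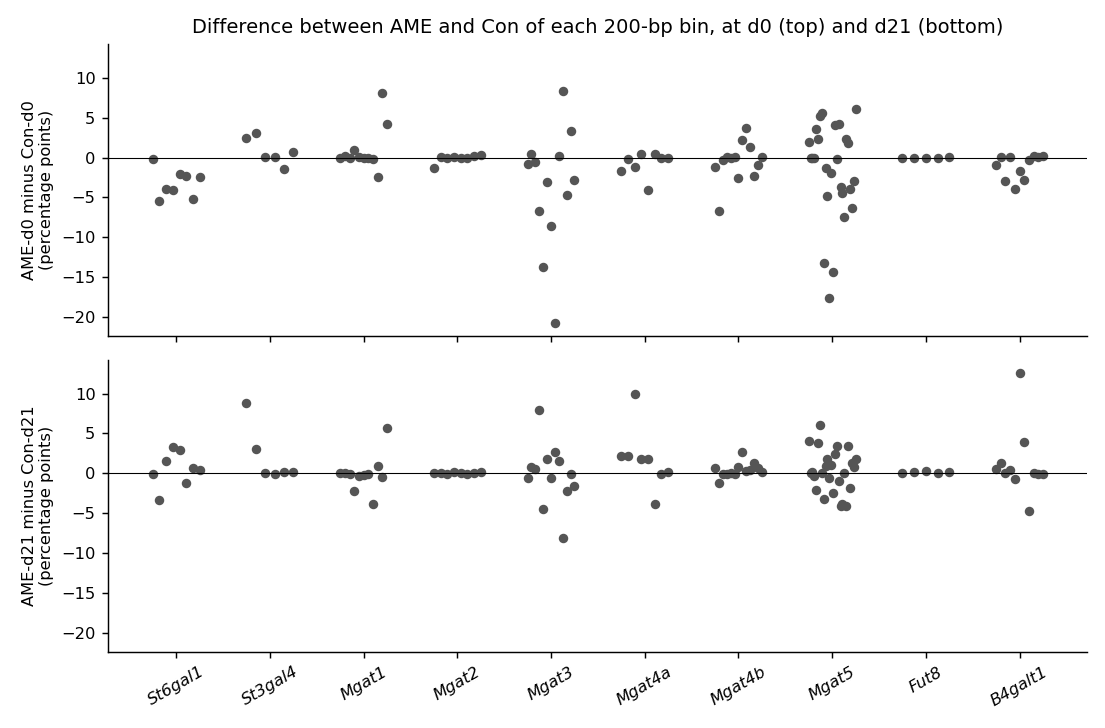
Difference in mean methylation (percentage points) of each of the 109 bins, AME-d0 minus Con-d0 in the upper panel and AME-d21 minus Con-d21 in the lower, by gene and in order of position; no bin was called in either. The differences lie between -20.7 and 8.33 points at d0 and between -8.16 and 12.6 points at d21.

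The largest differences at d0 were in Mgat3 and Mgat5, all of them lower in AME. The Mgat3 bin starting at 80195401 had 33.3%, 70.8%, 63.6%, 63.3% and 78.6% in AME-d0, against 76.0%, 96.9%, 76.7%, 79.4% and 84.4% in Con-d0, a difference of -20.7 points (unadjusted p = 0.0084, limma adjusted p = 0.87). The groups overlapped through AME-d0 replicate 5, and without AME-d0 replicates 1 and 3 the difference was -11.8 points. The Mgat5 bin starting at 127362801 had 47.6%, 79.2%, 45.7%, 75.0% and 70.0% in AME-d0, against 71.4%, 82.6%, 89.3%, 85.7% and 76.6% in Con-d0. Its difference of -17.6 points was -6.40 without AME-d0 replicates 1 and 3, both of which were below every other library.

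For the Mgat5 bin starting at 127378801, AME-d0 averaged 67.4% ± 6.34 and Con-d0 81.8% ± 5.77 on 6 CpGs, a difference of -14.4 points, and of -15.0 without AME-d0 replicates 1 and 3 (unadjusted p = 0.0033 and adjusted p = 0.87 with all libraries). The Mgat5 bin starting at 127336401 differed by -13.2 points, and by -12.6 without those replicates. The Mgat3 bin starting at 80191401 averaged 44.5% ± 22.4 in AME-d0 and 58.3% ± 14 in Con-d0, a difference of -13.8 points that was -0.73 without them.

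At d21 the largest difference was in an intronic bin of B4galt1, starting at 40835201, which had 85.0%, 94.4%, 92.9%, 77.5% and 89.5% in AME-d21, against 83.3%, 65.6%, 72.5%, 66.7% and 88.2% in Con-d21. The groups overlapped, and the difference of 12.6 points had an unadjusted p of 0.022 and a limma adjusted p of 0.97. In the Mgat3 bin starting at 80181201, all AME-d21 libraries (92.7% to 97.4%) were above all Con-d21 libraries (81.6% to 90.0%), with a log2 difference of 1.11 (SE 0.28), an unadjusted p of 0.0012 and an adjusted p of 0.97. The other 3 of the 5 largest were in Mgat4a (9.94 points), St3gal4 (8.80 points) and Mgat3 (-8.16 points), and the groups overlapped in each.

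The rest of the pathway was read from lists of other N-glycan genes. Of 202 bins of genes that make and trim the precursor, 59 rose and 4 fell in AME-d21 relative to AME-d0. Of 167 bins of other antenna genes 55 rose and 7 fell, and of 77 bins of genes for sugar donors and turnover 21 rose and 2 fell. The share that rose was 29.2%, 32.9% and 27.3% in these lists in that order. It was 28.4% in the 10 genes and 42.5% of all bins, so that a low share of rises was common to all 4 lists. All bins include those outside genes, and the lists were not matched to them in position or methylation level. The share that fell was 1.98%, 4.19% and 2.60% in these lists, next to 8.26% in the 10 genes, 4.44% in these without St6gal1 and Mgat1, and 3.27% of all bins. The largest fall was upstream of St3gal3, another sialyltransferase, at 18.2% ± 7.39 in AME-d21 and 78.2% ± 3.94 in AME-d0 (adjusted p = 4.2e-06), and its neighbouring bin averaged 30.3% ± 6.36 in AME-d21 and 80.8% ± 1.81 in AME-d0. The largest rises were in Neu3, a sialidase, at 68.7% ± 7.64 in AME-d21 and 20.6% ± 6.41 in AME-d0, and in Man1c1, a trimming mannosidase, at 57.4% ± 6.55 in AME-d21 and 14% ± 6.37 in AME-d0. None of these bins was called between AME and Con at either age.

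Of the 646 CpGs, 187 also lie in another annotated gene, among them all 98 of Mgat2 and 37 of Mgat4b that overlap Sqstm1. None of the 40 called bins overlaps another gene.

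Short motifs were counted in the bins as a description, on both strands. The GATA motif AGATAA was in 1 of the 31 bins that rose, 1 of the 9 that fell and 6.48% of all bins, and the forkhead motif TGTTTAC in 1 of 31, 0 of 9 and 1.97% of all bins. The cut site CCGG was in all 31 and all 9, as in 98.7% of all bins.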

How the data were processed

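RRBS was analysed in 20 liver libraries, 5 per group by the labels, from 5 dams or litters per group by the study's methods; its RNA-seq was not analysed here. For each library and CpG the authors deposited counts of methylated and of unmethylated reads, not normalized, and the deposited percent methylation is 100 times the methylated count over their sum. The tools named in the submitters' notes are Trim Galore, FastQC, BWA and Bismark, on mm10 and with no versions. Whether reads were deduplicated is not stated.

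Positions that are not a CG in GRCm38 were left out (0.128% to 0.230% of entries). Genes came from GENCODE M21, where the study used an earlier release. A bin or promoter needed 10 pooled reads in all 20 libraries, and a promoter at least 3 CpGs; 17 bins of the 10 genes missed this. R 4.3.3 with limma 3.58.1 was used on log2((methylated + 1)/(unmethylated + 1)) in the 10 libraries of a comparison, with Benjamini-Hochberg adjustment over the genome. CpGs were tested in Python 3.11.15 with a quasi-binomial F test, overdispersion floored at 1, at the thresholds of the study's methods with p taken as unadjusted. Both were tested on simulated data. Group means of CpGs are over libraries with 10 reads. Genes, lists, tests and alternatives were chosen with earlier results of these data known. The bins named are up to 3 of the largest called rises and falls per gene and the 5 largest AME differences at each age; a few other bins were added after their values were seen. The alternatives were other coverage minimums, tests, bin sizes and thresholds, a replicate block, and libraries left out.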

Additional observations from a re-analysis of the deposited data

Results flagged for a closer look

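In 11 of 132 groups of 5 libraries, over the 33 bins named by the rule, 1 library stood apart from the others by Dixon's test, which chance gives in about 1 in 20 groups. In Mgat1 the bin starting at 49261201 had 33.3% in AME-d21 replicate 4, whereas its group otherwise had 19.2% to 22.2%. In St6gal1 the bin at 23317401 had 21.4% in AME-d0 replicate 3, against 42.3% to 47.2%. In St3gal4 the bin at 35112001 had 21.4% in Con-d21 replicate 1, against 41.2% to 42.3%. In Mgat3 the bin at 80191401 had 29.6% in Con-d21 replicate 2, against 41.2% to 45.0%, and that at 80195401 had 89.5% in Con-d21 replicate 3, against 93.1% to 93.8%. In Mgat5 the bin at 127347401 had 94.1% in AME-d21 replicate 2, against 100% in the others. In B4galt1 the bin at 40835201 had 68.2% in AME-d0 replicate 2, against 83.3% to 89.5%. In Mgat4b the bin at 50234201 had 93.0% in AME-d0 replicate 4, against 83.2% to 85.9%. In Mgat2 the bin at 69185001 had 4.23% in AME-d21 replicate 1, against 0.952% to 1.85%. In Fut8 the bin at 77239401 had 0.228% in Con-d21 replicate 3 and 0.253% in AME-d0 replicate 5, against 0% in the other libraries of each group.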

How the results depend on the processing

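For AME-d21 relative to AME-d0 the count of called bins was 36 to 41 with each library left out, against 40 with all, 35 without AME-d0 replicates 1 and 3, and 19 (15 rose, 4 fell) at a minimum of 20 reads, where 55 bins could be tested. Called CpGs numbered 26, against 71 by a likelihood-ratio test without overdispersion, 44 by limma per CpG, 14 at a minimum of 20 reads, 11 without AME-d0 replicates 1 and 3, and 16 to 19 with a library left out. Called promoters numbered 0, against 1 (Mgat4a) at 20 reads and 1 with CpGs read in all 20 libraries. In AME-d0 against Con-d0 the likelihood-ratio test called 1 CpG, and in AME-d21 against Con-d21 it and limma called 1 each, against 0. The cause of these moves was not tested, beyond fewer features or libraries where either was reduced. Of 590 recomputed values of named bins none changed direction and 27 lost their call, all in the Mgat4b bin at 50234401 and the B4galt1 bins at 40833401 and 40807601. The 590 include values of bins that had no call to lose, namely those of AME against Con and those of Mgat2 and Fut8. Samples with the same replicate number deviated together weakly at most (correlations of -0.0140 to 0.0616), so that the numbers were not taken to pair them. Between AME-d0 and Con-d0, replicates 1, 3 and 5 did correlate best with their own number, at 0.0255, 0.0102 and 0.0616. None did in the other comparisons. With the replicate block, 39 bins and 37 CpGs (limma) were called in AME-d21 relative to AME-d0, and 0 bins and 0 CpGs between AME and Con at either age. Depth limits bins near the minimum of 10 pooled reads, where a read at a single CpG is worth 10 points and a read covering several CpGs more.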
